A study of Rattus norvegicus with 9 samples.

Results

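The genes described are 8 genes of myelin and of mature oligodendrocytes: Mbp, Mog, Mag, Mobp, Cnp, Mal, Cldn11, and Ugt8. They were chosen by name, and a probe was taken if the gene name in the array files was one of these. This gave 12 of the 30367 different probes on the array, and all 12 were among the 23747 probes tested. Where a gene had several probes, its brightest one over the 9 arrays stood for it. The question was how the RNA of these genes stood in the injured brain and after drug treatment.

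RNA came from brain tissue of male Sprague Dawley rats at day 14, described in the methods as the infarcted hemisphere, with 1 rat per array and 3 arrays per group. The Sham group had the operation without occlusion and received the solvent. The I/R group had the middle cerebral artery occluded with a nylon suture for 2 h, followed by reperfusion. The DHI group had the same injury and received Danhong injection, an extract of Salvia miltiorrhiza and Carthamus tinctorius, by tail vein each day. A single slide carried both the Sham group and the I/R group, and a further slide with a scan of its own carried the DHI group, so an effect of slide and an effect of DHI cannot be told apart. The tissue was a hemisphere with all its cell types, and fewer oligodendrocytes and less RNA per oligodendrocyte cannot be told apart.

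Oligodendrocytes wrap axons of the central nervous system with myelin, a compacted stack of membrane that is rich in lipid and allows fast conduction. Precursor cells divide and differentiate into oligodendrocytes, which then switch on the genes of the sheath together. Some of these genes encode proteins that hold the membrane layers together, some encode proteins of the sheath surface or of junctions, and others encode enzymes that make myelin lipids.

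Values are log2 signals minus the 75th percentile of the same array, so that 0 is the level of that percentile and 1 is a doubling. The percentile itself ranged from 1816 to 3464 signal units over the arrays, and 75.2 to 78.9% of the probes were well above background. The 12 probes were well above background on all 9 arrays, and none was saturated. A probe was called if its fold change was over 1.5 and its p-value from limma was under 0.05 after Benjamini-Hochberg adjustment over all tested probes. The study's own thresholds, the same fold change with an unadjusted p-value, were used as a second rule. The 3 comparisons share arrays and are not independent of each other.

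By its microglia and neuron markers, DHI 1 stood apart from the other DHI arrays. The summed level of 10 microglia and macrophage markers, in multiples of the 75th percentile, was 229 on DHI 1, 27.6 on DHI 2, and 34.5 on DHI 3, and it was 158.7 to 407.9 on the I/R arrays and 20.0 to 24.9 on the Sham arrays. The summed level of 10 neuron markers was 31.5 on DHI 1, 96.7 on DHI 2, and 77.6 on DHI 3, compared with 9.72 to 46.8 in I/R and 88.6 to 97.1 in Sham. By both lists DHI 1 lay within the range of the I/R arrays. Fold changes of the 8 genes and adjusted counts between DHI and I/R are therefore also given without it. DHI 1 was singled out from these same data. Leaving out a DHI array that resembles I/R favours a difference between DHI and I/R, so the values without it are only a description. Markers of striatal neurons and of the choroid plexus differed between arrays of 1 group as well, among them Sham 1, I/R 3, and DHI 3.

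None of the 8 genes was called in any comparison after adjustment. In I/R versus Sham this was 0 of 8 genes, while 31.5% of all tested probes were called. In DHI versus I/R it was 0 of 8 genes with 0.00421% of all probes, and in DHI versus Sham 0 of 8 genes with 0% of all probes. By the study's thresholds 1 gene was called in I/R versus Sham (Cldn11, with 43.1% of all probes called), 1 in DHI versus I/R (Mobp, with 21.9%), and 0 in DHI versus Sham (3.58%). The median log2 fold change of the 8 genes was -0.05 in I/R versus Sham, 0.47 in DHI versus I/R, and 0.61 in DHI versus Sham, and the median of all tested probes was -0.10, 0.10, and 0.02. With DHI 1 left out, 40.1% of all probes were called after adjustment in DHI versus I/R, and still 0 of the 8 genes. By the study's thresholds it was again 1 gene (Mobp), with 45.2% of all probes. The median of the 8 genes without DHI 1 was 0.64 in DHI versus I/R and 0.53 in DHI versus Sham, and that of all probes 0.18 and 0.07. The median of the 8 genes in DHI versus I/R was 0.19 when I/R 3 was left out instead, and 0.67 when I/R 1 was. The DHI group had the highest mean for 7 genes and the I/R group for 1, but no neighbouring pair of groups in these orders was called after adjustment.

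**Figure D1:**
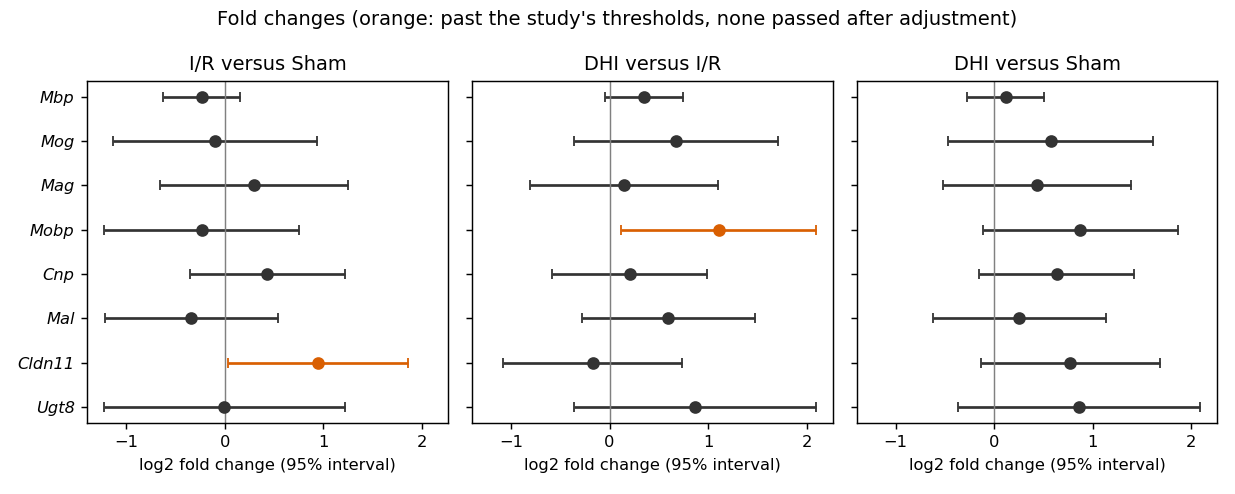
Log2 fold change of each of the 8 genes in the 3 comparisons (horizontal axis), with the 95% interval of the limma fit as whiskers. Orange marks the genes past the study's unadjusted thresholds, Cldn11 in I/R versus Sham (0.95) and Mobp in DHI versus I/R (1.11), and none passed after adjustment.

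Mbp encodes myelin basic protein, which holds the cytoplasmic faces of the membrane together. Its brighter probe (rn4 chr18:79057264-79057323) measured 6.92, 6.82, and 6.82 on the Sham arrays, 6.67, 6.70, and 6.47 on the I/R arrays, and 6.69, 7.22, and 6.98 on the DHI arrays. All I/R values were below all Sham values, which was the case for 35.8% of all tested probes, and the DHI values overlapped both groups. The log2 fold change was -0.24 ± 0.17 (SE) in I/R versus Sham, with a 95% interval of -0.63 to 0.16 and an adjusted p of 0.286 by limma. Between DHI and I/R it was 0.35 ± 0.17 (adjusted p = 0.212). Without DHI 1 this was 0.49 with an adjusted p of 0.0327 by limma, but it lay under the fold change of 1.5 that a call required. Before scaling, the signal of this probe ranged only from 267600 to 319800, by 1.20 times, while the 75th percentile of the arrays ranged by 1.91 times. Only 11 of the 30367 probes had a higher mean signal. The direction in DHI versus I/R depended on the scaling, and without scaling it was -0.11. The second Mbp probe, for a different transcript variant, averaged -1.89 ± 0.04 (SD, n = 3) for Sham, -2.40 ± 0.43 for I/R, and -2.20 ± 0.38 for DHI, and its groups overlapped in each comparison.

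Mobp encodes a small basic protein of compact myelin. Its brightest probe (rn4 chr8:125135770-125135829) measured 2.85, 2.79, and 3.47 on the Sham arrays, 3.70, 2.80, and 1.90 on the I/R arrays, and 3.60, 4.11, and 4.02 on the DHI arrays. The I/R arrays were widely spread, and the highest I/R value lay above the lowest DHI value. With this probe, all DHI values were above all Sham values, as for 10.3% of all tested probes. The DHI mean stood 1.11 ± 0.43 (SE), or 2.16-fold, above the I/R mean, with a 95% interval of 0.12 to 2.10 and an adjusted p of 0.196 by limma. The other Mobp probes gave differences of 1.02, with all DHI values above all I/R values (as for 5.52% of all probes), and 1.11, and both also passed the study's thresholds. Probes of 1 gene measure the same RNA samples and are not replicates. The unadjusted call did not hold when I/R 2 (1.11), I/R 3 (0.66), DHI 2 (1.01), or DHI 3 (1.06) was left out, and without DHI 1 the difference was 1.26 (adjusted p = 0.0696). In DHI versus Sham the difference of the brightest probe was 0.88 ± 0.43 (limma adjusted p = 0.709). The other Mobp probes gave 0.50 and 0.43 there, and their DHI and Sham values overlapped. In I/R versus Sham the brightest probe gave -0.23 ± 0.43 (adjusted p = 0.676), and the others gave -0.52 and -0.68.

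The spacing between Mobp probes was also compared. The probe at transcript position 258 minus the one at position 3049 gave 1.70, 1.84, and 1.58 on the Sham arrays, 2.18, 2.30, and 2.00 on the I/R arrays, and 2.12, 2.41, and 1.94 on the DHI arrays. The Sham values were below all values of both other groups. A two-sided exact permutation test gave p = 0.1 for each of these comparisons, the smallest that 3 arrays against 3 allow, and 0.6 after adjustment over 15 such tests.

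Mog encodes myelin oligodendrocyte glycoprotein, which sits on the outermost surface of the sheath. Its probe (rn4 chr20:1611776-1611835) measured 0.41, 0.56, and 1.39 on the Sham arrays, 1.41, 0.95, and -0.30 on the I/R arrays, and 1.13, 1.28, and 1.68 on the DHI arrays. I/R 3 was the lowest array and DHI 3 the highest, and the groups overlapped. The log2 fold change was -0.10 ± 0.45 in I/R versus Sham (limma adjusted p = 0.87), with an interval of -1.14 to 0.94. It was 0.67 ± 0.45 in DHI versus I/R (adjusted p = 0.31), and 0.79 without DHI 1 (0.242).

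Mag encodes myelin-associated glycoprotein, an adhesion protein of the innermost layer that contacts the axon. Its brighter probe (rn4 chr1:85954601-85954660) measured 3.05, 3.39, and 4.07 on the Sham arrays, 4.43, 3.94, and 3.01 on the I/R arrays, and 3.76, 3.67, and 4.39 on the DHI arrays. The groups overlapped, and I/R held both the highest and the lowest array. The log2 fold change was 0.29 ± 0.41 in I/R versus Sham (limma adjusted p = 0.586) and 0.15 ± 0.41 in DHI versus I/R (adjusted p = 0.813), which was 0.24 without DHI 1 (0.705). The second probe lies 24 bases further along the transcript, and its values were -1.27, -1.02, and -0.37 in Sham, 0.14, -0.33, and -1.35 in I/R, and -0.35, -0.76, and -0.03 in DHI. The difference between both probes was 4.11 to 4.44 on all 9 arrays, so that the spread between rats was found again with the second probe. The facing ends of both probes are shown because the first holds the letters of a polyadenylation signal (capitals), as do 8.39% of all probes, and the second lies beyond it.
Mag, transcript bases 2355 to 2384: aaaagggacatgaAATAAAtgtcctaatga
Mag, transcript bases 2409 to 2438: ttggaggaaaggggcatattagtaatactt

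Cnp encodes a phosphodiesterase of the cytoplasmic channels of the sheath. Its probe (rn4 chr10:89524880-89524939) measured 0.19, 0.31, and 1.18 on the Sham arrays, 1.37, 1.09, and 0.51 on the I/R arrays, and 1.51, 0.80, and 1.28 on the DHI arrays. Sham 1 and Sham 2 were the lowest arrays, and Sham 3 lay among the others. The log2 fold change was 0.43 ± 0.34 in I/R versus Sham (limma adjusted p = 0.329) and 0.64 ± 0.34 in DHI versus Sham (adjusted p = 0.709). Without DHI 1, DHI versus Sham was 0.48 (adjusted p = 0.85) and DHI versus I/R 0.05 (0.926).

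Mal encodes a membrane protein of sorting and transport to the sheath. Its probe (rn4 chr3:115167515-115167574) measured 0.40, 0.34, and 1.03 on the Sham arrays, 0.82, 0.47, and -0.55 on the I/R arrays, and 0.46, 0.86, and 1.21 on the DHI arrays. I/R 3 was below all other arrays. The log2 fold change was -0.34 ± 0.38 in I/R versus Sham (limma adjusted p = 0.486) and 0.60 ± 0.38 in DHI versus I/R (adjusted p = 0.294), which was 0.79 without DHI 1 (0.156).

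Cldn11 encodes claudin 11, the tight junction protein between the layers of the sheath. Its probe (rn4 chr2:116627458-116627517) measured -1.27, -1.64, and -0.53 on the Sham arrays, 0.14, -0.18, and -0.57 on the I/R arrays, and 0.11, -1.09, and -0.14 on the DHI arrays. The I/R arrays were higher than the Sham arrays except that I/R 3 lay just below Sham 3. The difference was 0.95 ± 0.39, or 1.93-fold, with a 95% interval of 0.04 to 1.86 and an adjusted p of 0.0894 by limma. The unadjusted call did not hold when DHI 3 (0.95), I/R 1 (0.77), I/R 2 (0.93), Sham 1 (0.88), or Sham 2 (0.70) was left out, and the first of these enters only through the shared estimate of the spread. In DHI versus I/R the difference was -0.17 ± 0.39 (adjusted p = 0.767), and -0.41 without DHI 1 (0.432).

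Ugt8 encodes the enzyme that makes galactosylceramide, a main lipid of myelin. Its probe (rn4 chr2:222979766-222979825) measured -2.18, -1.75, and -0.44 on the Sham arrays, -0.73, -1.67, and -1.97 on the I/R arrays, and -1.25, -0.47, and -0.05 on the DHI arrays. The groups overlapped, and the means of Sham and I/R were nearly equal. The log2 fold change was -0.00 ± 0.53 in I/R versus Sham (limma adjusted p = 0.996), but its interval, from -1.23 to 1.22, spans a doubling in either direction. In DHI versus I/R it was 0.87 ± 0.53 (adjusted p = 0.278), and 1.20 without DHI 1 (0.117).

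**Figure D2:**
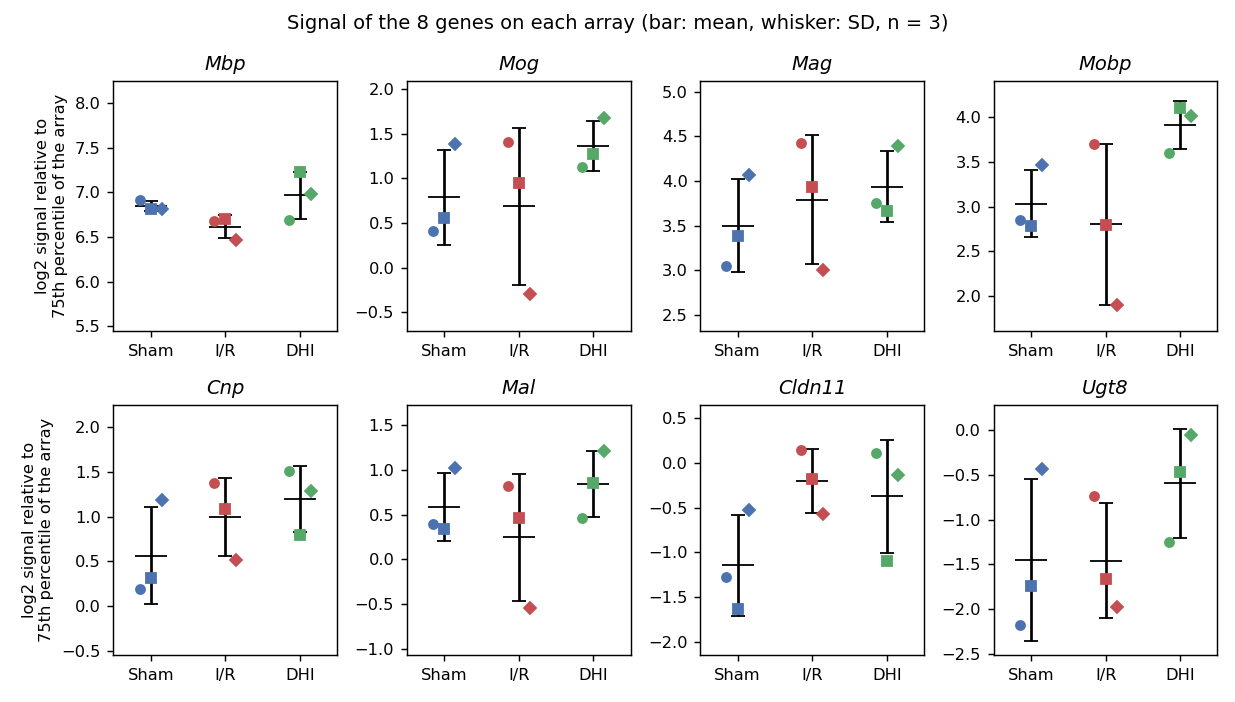
Log2 signal minus the 75th percentile of the same array (vertical axis) for the 8 genes in each group. Circles, squares, and diamonds are replicates 1, 2, and 3, bars are means, and whiskers are SD (n = 3), and every panel spans the same range. I/R 3 is the lowest I/R array for all 8 genes.

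The arrays of the Sham and I/R groups differed widely in the level of these genes. The median of the 8 genes, relative to the Sham mean of each gene, was -0.28, -0.25, and 0.58 on the Sham arrays, 0.69, 0.02, and -0.51 on the I/R arrays, and 0.30, 0.32, and 0.89 on the DHI arrays. Sham 3 and I/R 1 were high, and I/R 3 was low, with 5 of the 8 genes below the lowest Sham array. The SD within a group had a median over the 8 genes of 0.52 for Sham, 0.68 for I/R, and 0.37 for DHI, compared with 0.15, 0.32, and 0.40 over all tested probes. In Sham and in I/R, 7 of the 8 genes varied more than the median probe, and Mbp was the exception. In DHI only 2 of the 8 did. The 75th percentile used for scaling was highest on I/R 3 (3464), the array with the lowest median of the 8 genes, and its part in that value was not tested.

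**Figure D3:**
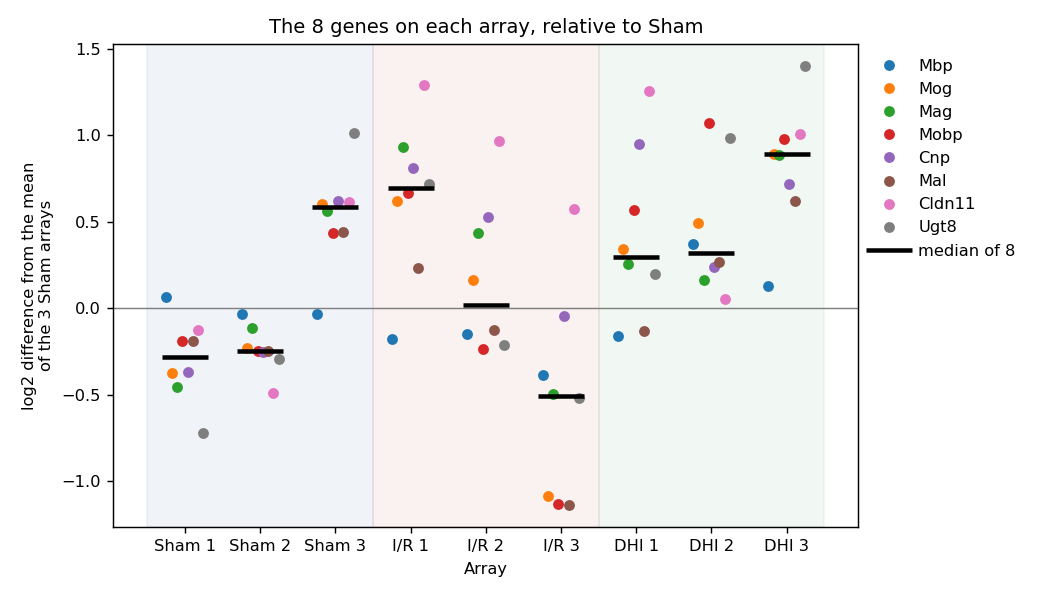
Log2 difference of each of the 8 genes from its own mean over the 3 Sham arrays (vertical axis) on each of the 9 arrays, with a black bar at the median of the 8. The medians run from -0.51 on I/R 3 to 0.89 on DHI 3, while DHI 1 and DHI 2 lie close together at 0.30 and 0.32.

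The genes most like this median pattern, by root mean square difference over the 9 arrays, were Unc5b (0.14), Pllp (0.15), Olr1002 (0.15), Otud7b (0.16), and Flt4 (0.16), among 15583 genes with a median of 0.61. Pllp encodes plasmolipin, a myelin protein. Among the 8 genes the difference was lowest for Mog (0.17) and Mag (0.18) and highest for Cldn11 (0.52). Arrays share depth and tissue, and the measure is a description.

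RefSeq (GRCr8) gave promoters for 7 of the genes and none for Mog here. In the 250 bases before the start, letters found in Sox binding sites (ACAAAG, either strand) were in 4 of 7 genes and in 16.3% of all 33469 promoters, and AACAAT was in 1 of 7 and 10.3%. Letters of the Myrf site (CTGGCAC, either strand) were in 3 of 7 genes and in 3.78% of all promoters. A gene was counted if any of its promoters held the letters, while the percentages are shares of single promoters. These counts and percentages are therefore not directly comparable. Ugt8, with a difference of 0.33 from the shared pattern, had 0 matches, while Mobp, at 0.32, had 8. A link between these letters and the pattern was not tested. Mag, near the shared pattern, and Cldn11, the furthest from it, are shown with the matches in capitals, and Cldn11 had none of these letters in the window.
Mag, GRCr8 chr1:95291045-95291294, minus strand: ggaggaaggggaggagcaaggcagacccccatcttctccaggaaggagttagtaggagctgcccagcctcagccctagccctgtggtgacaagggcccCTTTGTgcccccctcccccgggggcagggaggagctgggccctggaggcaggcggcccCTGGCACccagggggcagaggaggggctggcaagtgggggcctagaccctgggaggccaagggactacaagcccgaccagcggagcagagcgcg
Cldn11, GRCr8 chr2:114149540-114149789, minus strand: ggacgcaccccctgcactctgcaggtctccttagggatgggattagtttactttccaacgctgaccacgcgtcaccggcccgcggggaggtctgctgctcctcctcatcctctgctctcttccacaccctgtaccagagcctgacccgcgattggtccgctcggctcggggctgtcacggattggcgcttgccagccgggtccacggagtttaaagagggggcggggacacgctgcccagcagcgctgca

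Among other myelin and oligodendrocyte genes some passed in I/R versus Sham, a comparison in which 31.5% of all tested probes were called and the median of all probes was -0.10. The difference between these lists and the 8 genes was not tested. Of 20 other sheath proteins, 3 rose and 2 fell, a smaller share than that of all probes, with a median log2 fold change of 0.11. Apod (2.05, limma adjusted p = 0.0479) and Cd9 (1.83, 0.0483) rose, and Tppp fell (-1.45, 0.0405). Tmem125 was 2.39-fold lower in I/R by the fitted means (limma adjusted p = 0.0396). The interval of its log2 fold change was -1.98 to -0.54. It was not well above background in I/R, so the size of this difference is uncertain. Apod encodes a lipid carrier and Cd9 a tetraspanin, and neither is restricted to myelin. Of 13 lipid enzymes, 5 rose and none fell, a share near the 31.5% of all probes, with a median of 0.39. Aspa, which breaks down N-acetylaspartate, rose by 1.65 (adjusted p = 0.0397) and Gltp rose 2.82-fold (0.0405), while Smpd3 (-1.05, 0.0551) and Fa2h (-0.56, 0.261) did not pass.

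Sterol synthesis genes, which are used in myelin and in all other cells, were the list with the largest share called among those of myelin. Of 11 genes, 8 fell and none rose in I/R versus Sham, compared with 31.5% of all probes called, and the median was -1.29. Hmgcs1, an early enzyme of the pathway, fell (-2.14 ± 0.49, limma adjusted p = 0.0396), while Fdft1 (-0.32, 0.289) and Dhcr7 (-0.36, 0.141) were the highest and did not pass. In DHI versus I/R all 11 differences were above 0, with a median of 1.04, 8 passed the study's thresholds (21.9% of all probes), and 0 were called after adjustment. Without DHI 1, 8 were called after adjustment, with 40.1% of all probes, and the median was 1.44.

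Among precursor and newly formed oligodendrocyte genes, 5 of 12 rose in I/R and none fell, with 31.5% of all probes called in either direction and a median of 0.94. Enpp6, a gene of newly formed oligodendrocytes, rose by 1.89 (limma adjusted p = 0.0468), and Pdgfra, a receptor of precursors that other cells also carry, rose by 1.84 (0.04). Gpr17 (-0.27, 0.218) and Fyn (-0.06, 0.759) were the lowest. None of 9 oligodendrocyte transcription factors was called, with a median of 0.23 and values from Tcf7l2 (0.89, 0.15) and Myrf (0.52, 0.31) to Sox8 (-0.27, 0.346) and Zfp488 (-0.54, 0.0889). Of 12 junction and axon contact genes, 2 fell and none rose, a smaller share than the 31.5% of all probes, with a median of -0.09. These were Cntnap1, an axonal protein made by neurons (-2.62, adjusted p = 0.0396), and Omg, which neurons also make (-1.25, 0.0396). Jam3 (0.57, 0.155) and Lpar1 (0.36, 0.375) were the highest.

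Among 6 genes of Schwann cell myelin, 2 rose and 2 fell in I/R, again with 31.5% of all probes called. Pmp2 rose by 3.06 (limma adjusted p = 0.0396), Egr2 fell (-2.91, 0.0396), and Drp2 fell (-1.61, 0.0396). Egr2 is also an activity gene of neurons. With all 9 arrays, none of these 7 lists had a gene called after adjustment by limma in DHI versus I/R or in DHI versus Sham. Without DHI 1, all 7 had calls in DHI versus I/R, with 40.1% of all probes called. These were 5 of 20 sheath proteins, 4 of 13 lipid enzymes, 8 of 11 sterol genes, 3 of 12 precursor genes, 2 of 9 transcription factors, 2 of 12 junction genes, and 4 of 6 Schwann cell genes, and DHI versus Sham still had 0. In I/R versus Sham, each of the 6 lists with calls dropped to 0 calls in at least 1 fit that left out a single array, and over all probes the count of 7471 fell to 0 without Sham 1 and to 1 without DHI 3, I/R 1, I/R 2, Sham 2, or Sham 3.

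**Figure D4:**
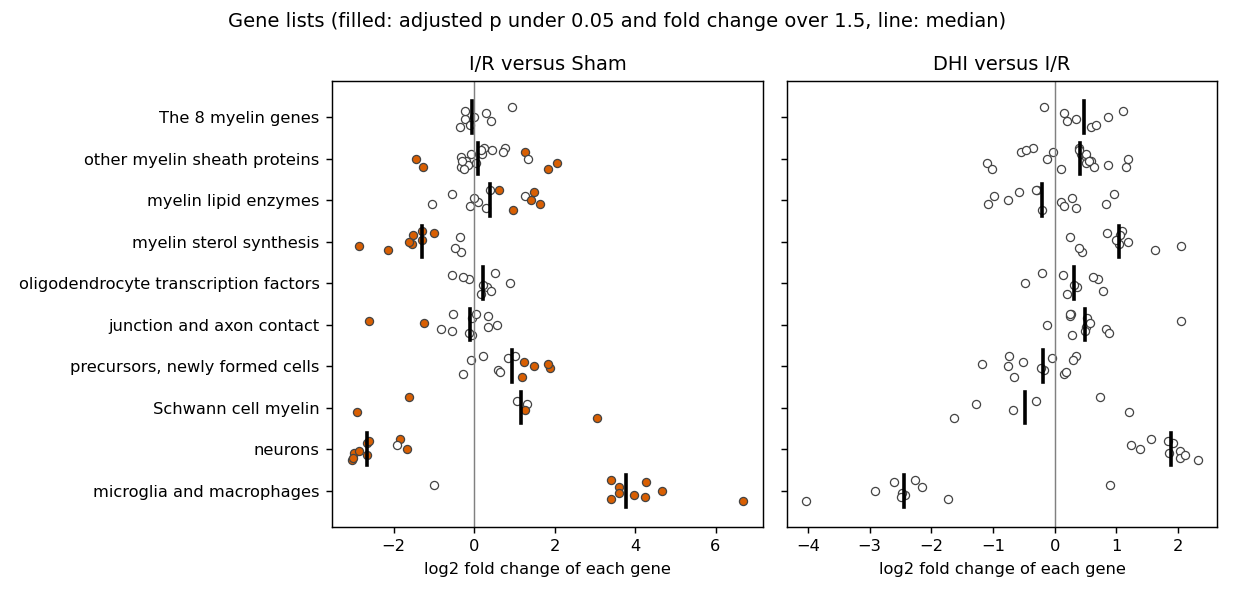
Log2 fold change of each gene (horizontal axis) in I/R versus Sham and DHI versus I/R for the 8 genes, 7 other oligodendrocyte and myelin lists, and markers of neurons and of microglia and macrophages. Filled points were called after adjustment and lines are medians, and the 8 genes run from -0.34 to 0.95 in I/R versus Sham with a median of -0.05, compared with medians of -2.66 for neurons and 3.79 for microglia and macrophages.

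Markers of neurons and of microglia and macrophages moved with I/R. All 10 neuron markers were lower in I/R than in Sham, and 9 of them were called after adjustment. Of 10 microglia and macrophage markers, 9 were higher and called, while Cx3cr1 was lower and was not called. Of 10 astrocyte markers 3 were called, with a median of 0.30, and of 8 endothelial markers 1, with a median of 0.17. Of 9 striatal neuron markers, all were lower and 1 was called. Of all tested probes, 31.5% were called in this comparison. I/R 3, the array with the lowest myelin values, had the highest neuron sum of the I/R arrays (46.8) and the lowest microglia and macrophage sum (158.7). Markers of striatal neurons summed to 52.8 on Sham 1, 10.4 on Sham 2, and 10.9 on Sham 3, to 2.87 to 5.14 in I/R, and to 3.996, 13.5, and 50.4 on DHI 1, DHI 2, and DHI 3. DHI 3 was also the array with the highest median of the 8 genes (0.89). Sham 1, with the highest striatal sum, had the lowest median of the Sham arrays (-0.28). I/R 1, with the lowest striatal sum, had the highest median of the I/R arrays (0.69). The 6 choroid plexus markers summed to 94.6 on I/R 3 and to 1.57 and 3.40 on I/R 1 and I/R 2. On the DHI arrays they summed to 138.6, 7.64, and 74.8, and in Sham to 0.66 to 1.25. Ttr made up most of the large sums, with 6.53 on I/R 3 and -0.54 and 0.19 on I/R 1 and I/R 2. Of the 6 markers, 5 were higher and 1 was lower in I/R than in Sham, and 2 were called higher after adjustment. Folr1, which was called, measured -1.30, -0.76, and -0.27 on the I/R arrays and -5.92, -5.92, and -4.03 on the Sham arrays. The part of cell composition and of the tissue sampled in the myelin values was not tested.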

How the data were processed

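The data are 9 one-color Agilent SurePrint G3 Rat arrays, 3 each of Sham, I/R, and DHI rats. The authors deposited the output of Agilent Feature Extraction 10.7.1.1, in which the processed signal of a spot is a linear intensity from which the background of that array was taken off. The authors deposited a series table too, in log2 values, whose columns have a median of 7.56 and follow quantile-normalized values (Pearson's r 0.99953 across probes); it was used as an alternative.

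Control spots and outlier spots (392 to 725 per array) were left out, each log2 intensity was reduced by the 75th percentile of its array, and repeat spots were averaged. Testing required a probe to be well above background throughout at least 1 group. One limma 3.58.1 model (R 4.3.3, lmFit and eBayes, 6 residual degrees of freedom) held all 9 arrays. Named genes were the 8 genes, the 2 highest and 2 lowest genes of each oligodendrocyte or myelin list in I/R versus Sham, and the 5 genes most like the median pattern; a few of the list genes that this rule names are not reported here. The genes and lists were chosen with earlier results of these data known. Gal3st1 and Myrf were matched by accession, and Nkx2-2 was not measured. The fit was tested on simulated data. Coordinates (rn4) come from the files, without an annotation of exons. The number of arrays limits the precision. The p-values set a difference between groups against the spread between rats within groups. In both comparisons with DHI that difference includes any effect of the slide. All columns of values could be assigned (0 left over).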

Additional observations from a re-analysis of the deposited data

How the results depend on the processing

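Of 480 alternative log2 fold changes of the 8 genes, 427 kept their direction and their side of the study's thresholds, 24 changed direction, 15 passed the thresholds only under the alternative, and 14 no longer passed. The counts after adjustment were 0 under every alternative except array weights, which gave 1 gene in I/R versus Sham, 3 in DHI versus I/R, and 1 in DHI versus Sham. By the study's thresholds, the 1 gene in DHI versus I/R became 0 without scaling, with only the 2 groups compared, with the replicate block, and by the methods' t-test, and 3 with array weights; leaving out 1 array gave 0 to 1. The 0 genes in DHI versus Sham became 1 with only the 2 groups compared, 5 with array weights, and 1 by the methods' t-test, and leaving out 1 array gave 0 to 3, with 3 without Sham 3. The 1 gene in I/R versus Sham became 0 by the methods' t-test, and leaving out 1 array gave 0 to 1. The cause was not tested.

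Without scaling, the direction changed in DHI versus I/R for Cnp (-0.26), Mag (-0.32), and Mbp (-0.11), in DHI versus Sham for Mal (-0.00977) and Mbp (-0.15), and in I/R versus Sham for Mog (0.10) and Ugt8 (0.19); the median of all probes was then -0.36 in DHI versus I/R, and that of the 8 genes 0.013. Mbp in DHI versus Sham was -0.00224 in the series table and -0.10 as the median of its probes, and Mog in I/R versus Sham was 0.071 with array weights. Leaving out 1 array in turn gave values on both sides of 0 for Cldn11 (-0.41 to 0.19), Cnp (-0.035 to 0.40), and Mag (-0.25 to 0.46) in DHI versus I/R, for Mbp in DHI versus Sham (-0.014 to 0.25), and in I/R versus Sham for Mag (-0.027 to 0.68), Mal (-0.63 to 0.054), Mobp (-0.68 to 0.21), Mog (-0.46 to 0.39), and Ugt8 (-0.37 to 0.50). Over all probes the adjusted count in I/R versus Sham was 7471, 1 without scaling, and 12905 with array weights. In DHI versus I/R it was 1, 11713 with array weights, and 9527 without DHI 1, and in DHI versus Sham 0 and 2169 with array weights. At the study's thresholds the methods' t-test gave 469 in DHI versus I/R and 448 in DHI versus Sham, against 5211 and 849.

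The shared replicate numbers were not treated as pairs of rats in the main fit. Deviations of same-numbered arrays correlated at 0.07, -0.29, and 0.15 in I/R and Sham, at 0.48, -0.34, and 0.42 in DHI and I/R, and at 0.08, 0.30, and 0.02 in DHI and Sham. With the replicate block the adjusted p of Mobp in DHI versus I/R was 0.176, and the all-probe count in I/R versus Sham was 8426. Slide as a block was not run, since no slide holds DHI arrays together with another group.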
